A study of Homo sapiens with 8 samples.

Results

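The genes described here are 38 genes of glycolysis and of the cellular response to low oxygen, measured by RNA sequencing in 8 libraries of KCL-22. KCL-22 is an established human cell line from the blast crisis of chronic myeloid leukemia, and its growth is driven by the fusion kinase BCR-ABL. The genes were taken by symbol from a table of 31402 entries, and each symbol matched 1 entry. Of the 38, 36 averaged at least 1 FPKM (sequenced fragments scaled to transcript length and library size) and were tested among 11843 such entries. PFKM and EGLN3 did not reach that level.

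All 8 libraries came from cells tagged with ClonTracer, in which a DNA barcode inherited by daughter cells marks each lineage. The 3 resistant populations were the cells left after 27 days in 2.5 µM imatinib, after 27 days in 0.3 µM nilotinib and after 21 days in 2.5 µM GNF-2. Imatinib and nilotinib occupy the catalytic site of the kinase, whereas GNF-2 acts allosterically, at the myristate pocket. Another 4 libraries came from clones sorted from resistant cells and expanded, with no time stated. Clones 1, 2 and 4 had never met imatinib or nilotinib, and Clone 3 had never met GNF-2. Clones 1 and 2 came from cells resistant to GNF-2 at 2.5 µM and resist GNF-2. Clone 4 had the same origin and resists all 3 compounds. Clone 3 came from cells resistant to imatinib at 2.5 µM and resists imatinib and nilotinib. They were set against a vehicle population kept in 0.1% DMSO for 7 days, with 1 library. The catalytic-resistant group thus held 3 libraries (imatinib population, nilotinib population and Clone 3), as did the GNF-2-resistant group (GNF-2 population, Clones 1 and 2). All 8 libraries derive from 1 cell line and each clone has 1 library, and whether the libraries of a group were separate cultures is not stated. The p-values therefore measure only the spread between these libraries. That spread mixes differences of drug, dose, time and clone within a group with any technical variation.

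Glycolysis splits glucose into pyruvate in the cytosol, and lactate dehydrogenase then turns pyruvate into lactate, which a carrier exports. Hypoxia-inducible factor (HIF), a pair of HIF1A or a relative with ARNT, binds short ACGTG or GCGTG motifs beside most of the enzyme and carrier genes of this route and raises their transcription. Prolyl hydroxylases that need oxygen mark the HIF1A protein for destruction, so its activity is set mainly by protein stability rather than by the level of its RNA. In BCR-ABL leukemia cells, the kinase is known to drive glucose uptake and glycolysis.

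The line's markers BCR, ABL1, GATA2 and ANPEP were abundant in all 8 libraries, though ANPEP ran from 14.6 FPKM in Clone 2 to 78.3 in Clone 3. The other 6 on its list were low or uneven: KIT, MPO and CSF2RB stood at 0 to 0.403 FPKM, and CD33 at 0.157 (Clone 3) to 3.35. CD34 stood at 12.2 FPKM in Clone 4 and at 0.537 to 3.08 in the other resistant libraries, against 0.378 in vehicle. SPI1 was listed at 0 in Clones 3 and 4 and stood at 7.50 to 18.2 FPKM in the other resistant libraries, against 29.9 in vehicle. The part of these markers in the results was not tested. Of the markers of other cell types, 7 of 8 averaged under 1 FPKM. Among these 7, PECAM1 stood at 1.92 FPKM and COL1A1 at 0.927 in Clone 2, against at most 0.241 and 0.0310 in the other libraries. The remaining marker, NKG7, stood at 73.3 to 423 FPKM. Depth, estimated roughly from 612 intronless genes, ran from 19200000 fragments (GNF-2 population) to 38900000 (Clone 1), so that 1 FPKM on a 2 kb transcript stood for about 38.4 to 77.8 fragments. In bulk RNA, fewer cells expressing a gene and less RNA per cell cannot be told apart.

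Promoter sequence is shown for CA9, ADM, ENO2 and ANKRD37, among the members farthest below vehicle, for PDK3, the member with the smallest adjusted p between clones and populations, and for LDHB, which ran the other way. Each run is the 250 bases upstream of the gene's start in RefSeq on GRCh38.p14, read in the gene's direction, with ACGTG or GCGTG, or their reverse complements CACGT and CACGC, in capitals. The positions are chr9:35673678-35673927 (+ strand) for CA9, chr11:10304823-10305072 (+ strand) for ADM, chr12:6914330-6914579 (+ strand) for ENO2, chr4:185396591-185396840 (+ strand) for ANKRD37, chrX:24465036-24465285 (+ strand) for PDK3 and chr12:21657843-21658092 (- strand) for LDHB.
CA9: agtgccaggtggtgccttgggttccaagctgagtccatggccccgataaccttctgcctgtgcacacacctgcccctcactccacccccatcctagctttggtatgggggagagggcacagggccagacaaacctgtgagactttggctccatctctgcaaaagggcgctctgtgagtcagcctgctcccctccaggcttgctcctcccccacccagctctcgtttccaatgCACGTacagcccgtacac
ADM: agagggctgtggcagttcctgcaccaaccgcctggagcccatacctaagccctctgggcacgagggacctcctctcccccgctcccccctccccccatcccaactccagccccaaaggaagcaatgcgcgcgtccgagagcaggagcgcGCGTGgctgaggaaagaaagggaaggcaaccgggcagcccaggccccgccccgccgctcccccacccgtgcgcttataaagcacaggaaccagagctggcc
ENO2: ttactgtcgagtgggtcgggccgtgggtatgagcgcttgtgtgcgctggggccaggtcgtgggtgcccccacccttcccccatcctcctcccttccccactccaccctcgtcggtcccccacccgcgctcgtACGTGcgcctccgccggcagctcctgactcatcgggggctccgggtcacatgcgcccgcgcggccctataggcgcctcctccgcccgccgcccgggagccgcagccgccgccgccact
ANKRD37: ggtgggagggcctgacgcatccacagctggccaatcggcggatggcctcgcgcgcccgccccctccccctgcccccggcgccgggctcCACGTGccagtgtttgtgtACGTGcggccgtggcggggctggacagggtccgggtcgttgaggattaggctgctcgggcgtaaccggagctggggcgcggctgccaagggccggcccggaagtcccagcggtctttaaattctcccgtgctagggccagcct
PDK3: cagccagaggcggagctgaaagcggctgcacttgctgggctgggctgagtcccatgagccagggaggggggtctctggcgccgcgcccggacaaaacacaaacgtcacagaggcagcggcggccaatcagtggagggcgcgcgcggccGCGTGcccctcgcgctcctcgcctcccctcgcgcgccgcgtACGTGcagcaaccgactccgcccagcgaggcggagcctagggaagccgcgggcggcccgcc
LDHB: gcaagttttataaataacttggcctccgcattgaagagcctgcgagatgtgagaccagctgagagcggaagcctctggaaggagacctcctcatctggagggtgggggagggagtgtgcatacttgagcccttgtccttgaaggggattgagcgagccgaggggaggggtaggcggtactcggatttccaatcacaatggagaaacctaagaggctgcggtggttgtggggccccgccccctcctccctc
The capitals of CA9 begin 18 bases before the end of its run, next to the start of the gene, and the LDHB run holds neither motif on either strand. In ANKRD37, CACGT and ACGTG overlap in a single CACGTG. Of the 33 members matched in the RefSeq table, 22 (66.7%) held at least 1 of the motifs on either strand, against 43.1% of 27305 promoter runs of the same length. ACGTG alone was in 15 of the 33 (45.5%), against 18.7% of all runs, and GCGTG in 13 (39.4%), against 31.9%. SLC2A1 and PDK1, both well known targets of HIF, held neither motif in this window. A match describes the letters in the window and was not tested as a binding site. The members were chosen as genes of glycolysis and hypoxia, so these shares describe the list and are no test. The 27305 runs were not limited to entries expressed here.

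The median member stood lower in every resistant library than in vehicle, by little in the imatinib population and by most in Clones 1 and 4. On the log2(FPKM + 1) scale, which understates differences of genes near or below 1 FPKM, the median member differed from vehicle by -0.19, -0.43 and -0.85 in the imatinib, nilotinib and GNF-2 populations, and by -1.55, -1.05, -0.95 and -1.38 in Clones 1 to 4. Over all 11843 entries the same medians lay between -0.04 and 0.12. Members at least 2-fold below vehicle (with 5 FPKM or more in the higher library) numbered 4 of 36 in the imatinib population, against 1.69% of all entries, 9 with nilotinib (1.7%) and 15 with GNF-2 (2.7%). Among clones they numbered 23 in Clone 1 (8.65%), 19 in Clone 2 (7.46%), 17 in Clone 3 (6.86%) and 22 in Clone 4 (9.2%). No member was 2-fold above vehicle in any of the 7, while 0.726%, 1.98% and 3.09% of all entries were in the 3 populations and 4.72%, 6.27%, 3.77% and 8.24% in Clones 1 to 4. All 38 members took 4.86%, 4.31% and 3.91% of the FPKM sum in the imatinib, nilotinib and GNF-2 populations, 2.85%, 2.86%, 3.82% and 2.85% in Clones 1 to 4, and 5.38% in vehicle. Without GAPDH the shares were 3%, 2.58% and 2.21% in these populations, 1.62%, 1.91%, 2.09% and 1.81% in Clones 1 to 4, and 3.51% in vehicle. With 1 library each, these differences have no replicate check. The resistant populations had been in culture with drug for 21 or 27 days and the vehicle population for 7, so treatment and time cannot be told apart.

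**Figure D1:**
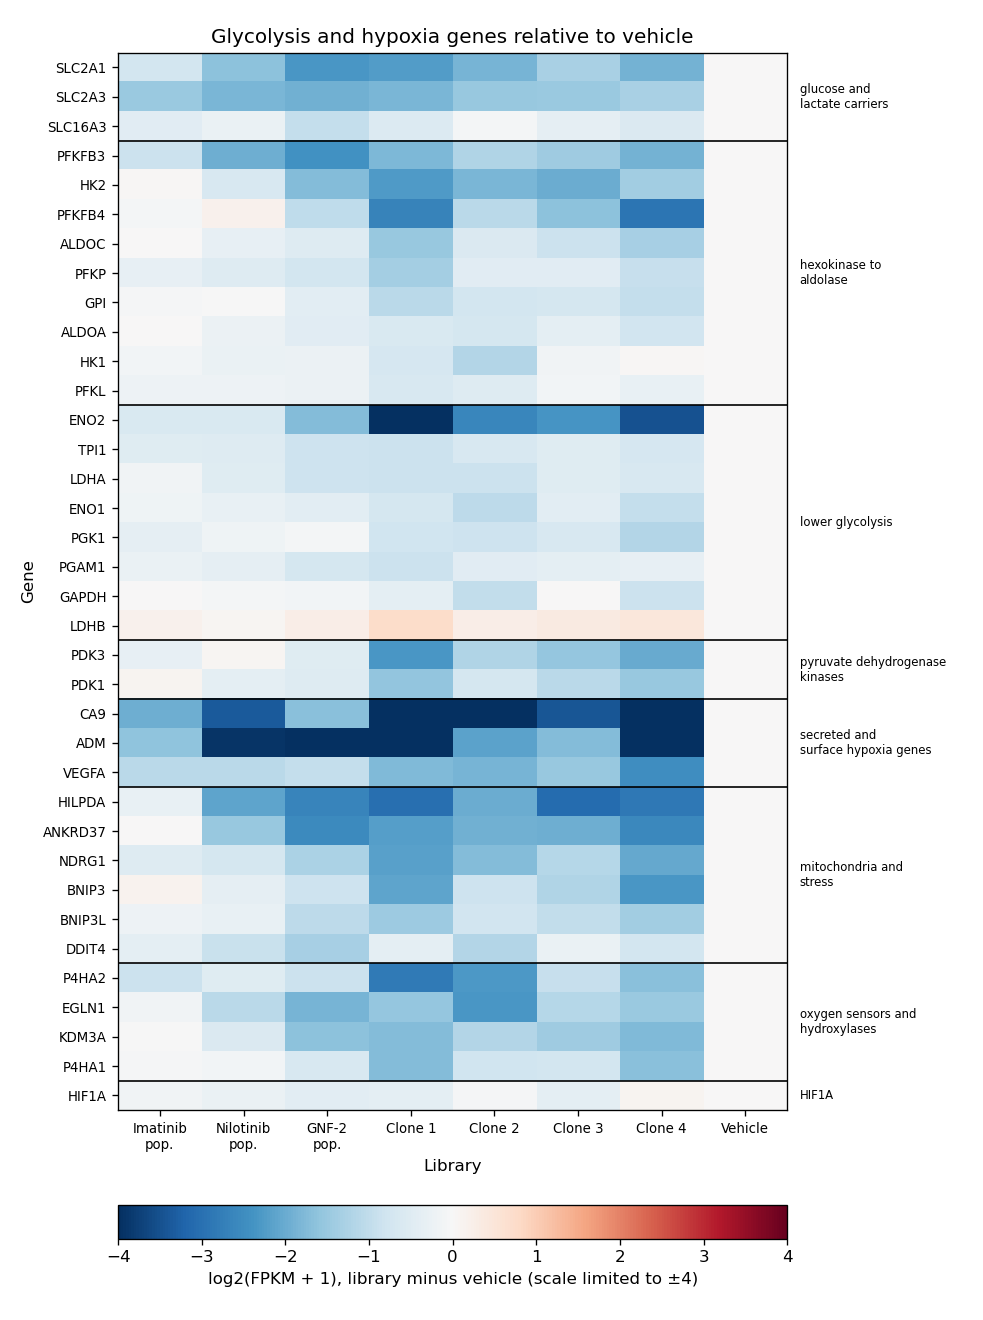
Each row is a member and each column a library; color gives the library's log2(FPKM + 1) minus that of the vehicle library, from -4 (blue) to 4 (red), with larger differences drawn at the limit. Rows are grouped by role. Blue deepens from the imatinib population, whose median is -0.19, to Clones 1 and 4, at -1.55 and -1.38, while the LDHB row is above 0 in all 7 resistant libraries as deposited, but not in the nilotinib population after rescaling by median ratios.

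**Figure D2:**
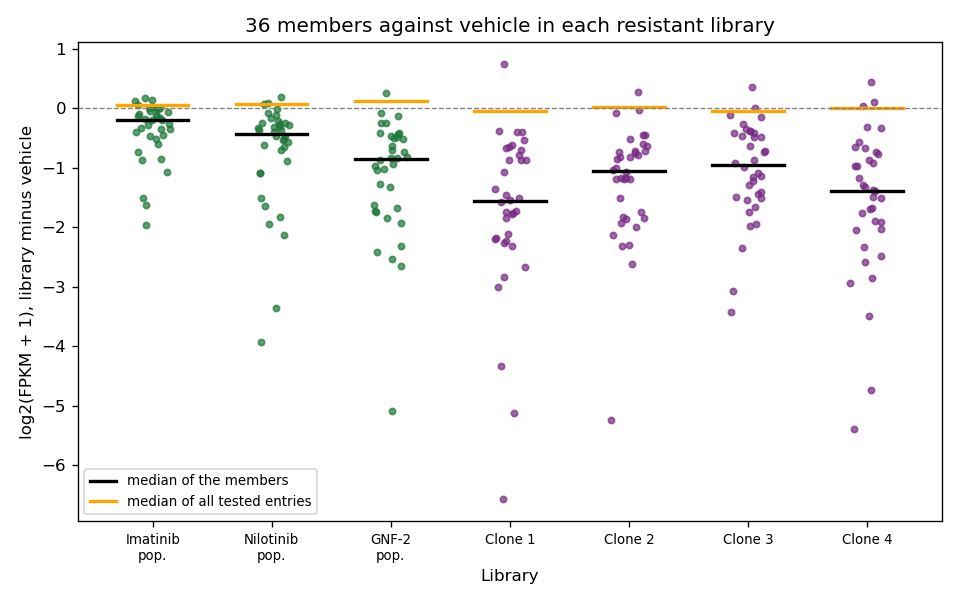
Each point is 1 of the 36 members in 1 resistant library, placed by its log2(FPKM + 1) minus vehicle; black bars are the medians of the members and orange bars those of all 11843 entries tested. The black bar is below the orange bar in all 7 libraries, and lowest in Clone 1.

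Members were sorted by the libraries in which they stood 2-fold below vehicle, a grouping made after their values were seen and given as a description. SLC2A3, CA9 and ADM were at least 2-fold below vehicle in all 7 resistant libraries. Another 11 members (HK1, GPI, PFKP, ALDOC, PGK1, ENO1, PDK1, PDK3, BNIP3, P4HA1 and P4HA2) were 2-fold lower in 1 or more clones and in no resistant population. For 13 members, among them SLC2A1, HK2, ENO2, HILPDA, ANKRD37 and EGLN1, this held in some populations as well as some clones. The last 9 (SLC16A3, PFKL, ALDOA, TPI1, GAPDH, PGAM1, LDHA, LDHB and HIF1A) were not 2-fold lower in any. Shares over all entries were not computed for these groupings. Of all entries, 1.69% to 2.7% were 2-fold below vehicle in each resistant population and 6.86% to 9.2% in each clone. Being 2-fold lower in clones alone therefore cannot be read as particular to these members.

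The glucose carriers were among the members farthest below vehicle. SLC2A3 (GLUT3), the high-affinity glucose carrier, had 131, 104 and 97.2 FPKM in the imatinib, nilotinib and GNF-2 populations, 104, 130.4, 132 and 152 in Clones 1 to 4, and 373 in vehicle. All 7 resistant libraries lay far below vehicle and close to each other, the highest of them being Clone 4. SLC2A14, a near copy of SLC2A3 whose reads cannot be assigned with certainty, showed the same layout, with 3.30 to 5.03 FPKM in the resistant libraries and 13.5 in vehicle. SLC2A1 (GLUT1), the carrier of most cells and erythrocytes, had 144, 76.0 and 47.4 FPKM in the imatinib, nilotinib and GNF-2 populations, 50.0, 65.6, 97.3 and 63.2 in Clones 1 to 4, and 239 in vehicle. Here the imatinib population kept more of the vehicle level than the nilotinib and GNF-2 populations or any clone. The lactate exporter SLC16A3 (MCT4) varied little, with 164, 185 and 114 FPKM in the imatinib, nilotinib and GNF-2 populations, 153, 212, 175 and 149.9 in Clones 1 to 4, and 223 in vehicle, and Clone 2 was the resistant library nearest to vehicle.

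In the upper part of glycolysis HK2 spanned a 5.05-fold range over the 8 libraries, PFKFB3 5.57-fold and PFKFB4 9.34-fold, against 2.34-fold for HK1 and 1.57-fold for PFKL. HK2, a hexokinase induced by low oxygen, had 293, 179 and 83.5 FPKM in the imatinib, nilotinib and GNF-2 populations, 58.0, 78.8, 70.6 and 108 in Clones 1 to 4, and 282 in vehicle. The imatinib population stood at the vehicle level, while the GNF-2 population and all clones lay at 108 FPKM or less. HK1, the housekeeping hexokinase, had 75.2, 68.1 and 68.4 FPKM in the imatinib, nilotinib and GNF-2 populations, 50.7, 35.6, 73.0 and 83.2 in Clones 1 to 4, and 81.2 in vehicle, and only Clones 1 and 2 stood apart, both lower. GPI, which converts glucose phosphate to fructose phosphate, had 225, 286, 289.5 and 243 FPKM in Clones 1 to 4, 463, 474 and 358 in the imatinib, nilotinib and GNF-2 populations, and 476 in vehicle. All clones lay below all populations, and the imatinib and nilotinib populations matched vehicle closely.

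Phosphofructokinase commits the sugar to glycolysis, and its muscle form was almost absent. PFKM was listed at 0 in the nilotinib population and in Clones 1, 2 and 3, and at 1.04 FPKM in the imatinib population, 1.23 in the GNF-2 population, 1.60 in Clone 4 and 1.40 in vehicle. PFKL, the liver form, had 165, 162 and 159 FPKM in the imatinib, nilotinib and GNF-2 populations, 119.8, 132, 174 and 152 in Clones 1 to 4, and 188 in vehicle. PFKP, the platelet form, had 155, 135 and 118 FPKM in the imatinib, nilotinib and GNF-2 populations, 76.3, 144, 142 and 103 in Clones 1 to 4, and 196 in vehicle. Vehicle was highest for both, with Clone 1 lowest.

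PFKFB3 and PFKFB4 make the sugar bisphosphate that activates phosphofructokinase, and differed from each other in layout. PFKFB3 had 60.6, 28.1 and 19.9 FPKM in the imatinib, nilotinib and GNF-2 populations, 31.5, 47.8, 40.3 and 29.1 in Clones 1 to 4, and 111 in vehicle, so that every resistant library was well below vehicle and the GNF-2 population was lowest. PFKFB4 had 14.4, 45.6, 30.3 and 11.8 FPKM in Clones 1 to 4, 91.2, 111 and 47.4 in the imatinib, nilotinib and GNF-2 populations, and 97.3 in vehicle. Its nilotinib and imatinib populations bracketed vehicle, and all clones were below all populations, with Clones 1 and 4 lowest. The aldolases, which split fructose bisphosphate into trioses, had smaller ranges. ALDOA, the main form, had 2958, 2470.2 and 2123 FPKM in the imatinib, nilotinib and GNF-2 populations, 1914, 1789.8, 2239.7 and 1725 in Clones 1 to 4, and 2933 in vehicle, and ALDOC had 155, 293, 243 and 177 FPKM in Clones 1 to 4, 449, 349.9 and 309.8 in the imatinib, nilotinib and GNF-2 populations, and 443 in vehicle. For both, the imatinib population and vehicle were nearly equal; Clone 4 was lowest for ALDOA and Clone 1 for ALDOC.

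Lower glycolysis contributed the most abundant transcripts and, apart from ENO2, modest differences. TPI1, which interconverts the triose phosphates, had 608, 590.2 and 475 FPKM in the imatinib, nilotinib and GNF-2 populations, 462, 540.3, 599.7 and 528 in Clones 1 to 4, and 842 in vehicle. GAPDH, which oxidizes glyceraldehyde phosphate and is often used as a constant reference, had 7133, 4734, 9534 and 5169 FPKM in Clones 1 to 4, 9489.5, 8982 and 8662 in the imatinib, nilotinib and GNF-2 populations, and 9445 in vehicle. Clones 2 and 4 were the lowest, while Clone 3 and the imatinib population reached vehicle. GAPDH and several other members have processed pseudogenes, and no source used here states how reads were divided among them. PGK1, an enzyme of the pathway that yields ATP, had 632, 618, 707 and 484 FPKM in Clones 1 to 4, 856, 975 and 1028 in the imatinib, nilotinib and GNF-2 populations, and 1092 in vehicle. All clones were below all populations, and the GNF-2 population, low for most members, was here the nearest to vehicle. PGAM1, the mutase, had 115, 108 and 85.3 FPKM in the imatinib, nilotinib and GNF-2 populations, 75.6, 102, 107 and 109.6 in Clones 1 to 4, and 139 in vehicle, with Clone 1 and the GNF-2 population lowest.

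ENO1, the ubiquitous enolase, had 3238, 2966 and 2726 FPKM in the imatinib, nilotinib and GNF-2 populations, 2276, 1796, 2756 and 1883 in Clones 1 to 4, and 3677 in vehicle. ENO2, the neuronal enolase and a known HIF target, had 23.8, 80.3, 96.8 and 43.4 FPKM in Clones 1 to 4, 329, 325 and 149 in the imatinib, nilotinib and GNF-2 populations, and 498 in vehicle. Clone 1 stood 20.9-fold below vehicle. All clones lay below all populations, and the GNF-2 population lay between the clones and the other populations. LDHA, which favors lactate formation, had 1543, 1241 and 962 FPKM in the imatinib, nilotinib and GNF-2 populations, 944, 951, 1227 and 1093 in Clones 1 to 4, and 1719 in vehicle. The imatinib population was nearest to vehicle and the GNF-2 population and Clones 1 and 2 were nearly equal. LDHB, which favors the reverse reaction, had 998, 723, 766 and 809 FPKM in Clones 1 to 4, 669, 631 and 715 in the imatinib, nilotinib and GNF-2 populations, and 596 in vehicle. It alone among the 36 was higher in all 7 resistant libraries than in vehicle, and all clones were above all populations. Rescaled by median ratios the nilotinib population equaled vehicle (603.2 and 604.5), and after quantile normalization Clone 3 (671.1) was below the 3 populations.

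The pyruvate dehydrogenase kinases shut pyruvate out of the mitochondrial citrate cycle, and the 2 among the members, PDK1 and PDK3, were low in the clones. PDK1, a classic HIF target, had 38.2, 70.1, 54.3 and 40.0 FPKM in Clones 1 to 4, 126, 88.0 and 81.6 in the imatinib, nilotinib and GNF-2 populations, and 116 in vehicle. PDK3 had 1.86, 5.22, 3.90 and 2.51 FPKM in Clones 1 to 4, 10.2, 14.1 and 9.15 in the imatinib, nilotinib and GNF-2 populations, and 13.2 in vehicle. All clones lay below all populations in both, and for PDK3 the populations spread around vehicle. PDK2, a kinase of this family outside the members, had 8.81, 20.6, 7.99 and 11.4 FPKM in Clones 1 to 4. It had 10.2, 10.9 and 10.6 FPKM in the imatinib, nilotinib and GNF-2 populations, and 7.87 in vehicle. For PDK2 vehicle was lowest, and the clones lay on both sides of the populations.

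**Figure D3:**
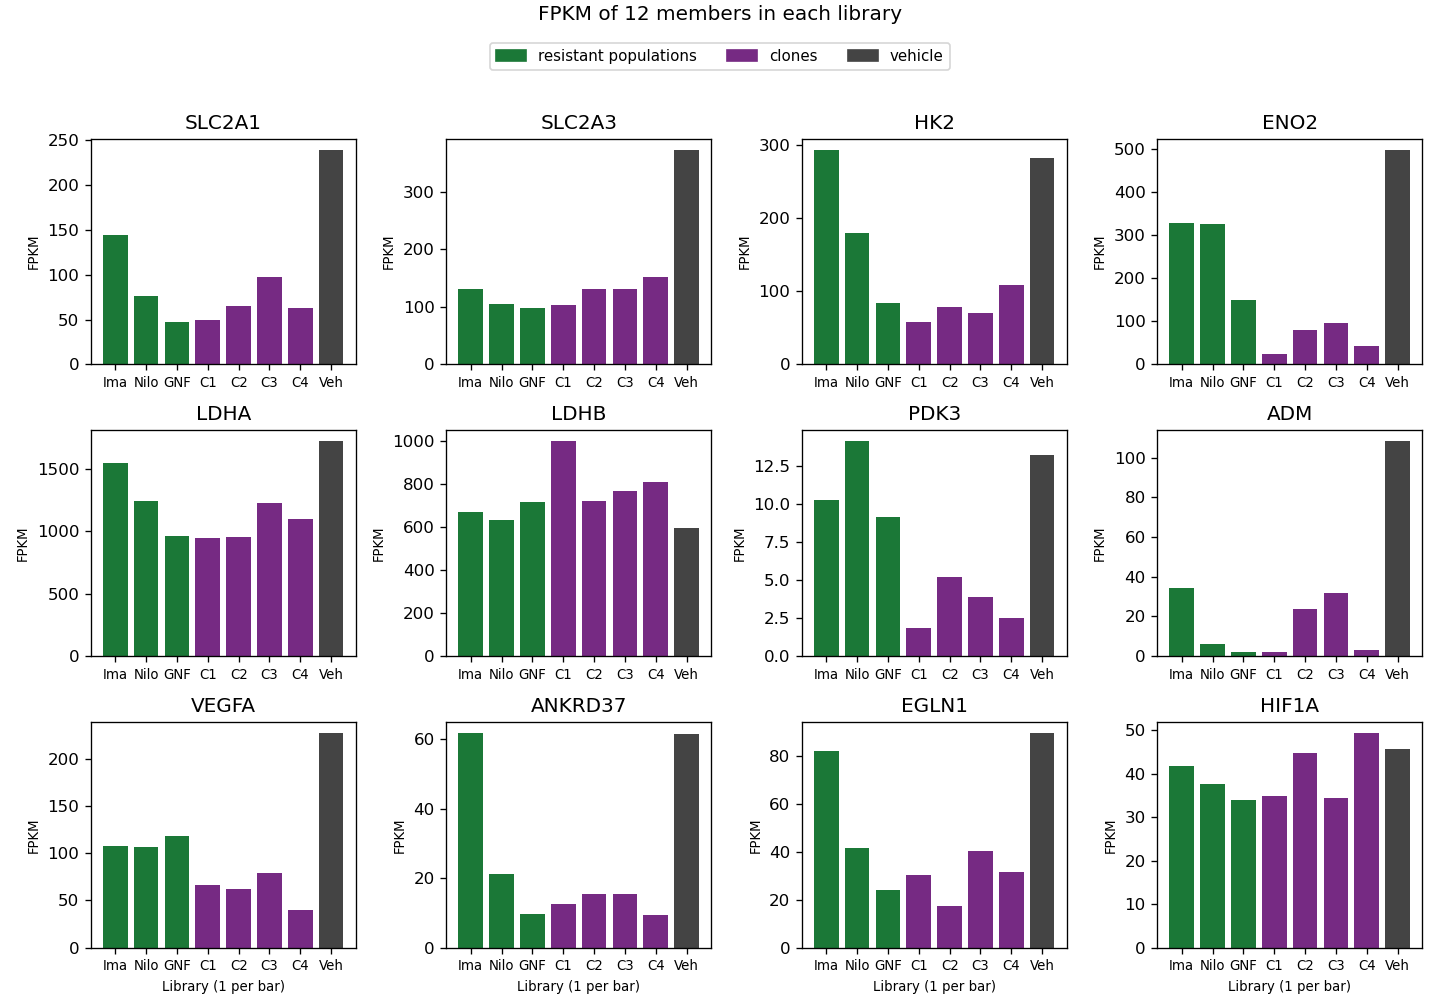
FPKM of 12 members, 1 bar per library: imatinib (Ima), nilotinib (Nilo) and GNF-2 (GNF) populations in green, Clones 1 to 4 (C1 to C4) in purple and vehicle (Veh) in grey. SLC2A3 is low in all resistant libraries, ANKRD37 and EGLN1 keep the vehicle level in the imatinib population, PDK3 and ENO2 are lowest in the clones, LDHB is lowest in vehicle (after rescaling by median ratios, level with the nilotinib population) and HIF1A overlaps.

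Of the secreted and surface genes of the hypoxia response, CA9 and ADM lay farthest below vehicle. CA9, the surface carbonic anhydrase that is one of the most HIF-dependent genes known, had 23.4 FPKM in the imatinib, 8.32 in the nilotinib and 28.6 in the GNF-2 population. It was listed at 0 in Clone 1, had 1.53, 7.84 and 1.26 FPKM in Clones 2, 3 and 4, and stood at 93.8 in vehicle. All clones lay below all populations, and all 7 below vehicle. ADM, the vasodilator peptide adrenomedullin, had 34.5, 6.21 and 2.23 FPKM in the imatinib, nilotinib and GNF-2 populations, 2.13, 23.9, 31.8 and 3.10 in Clones 1 to 4, and 108 in vehicle. The imatinib population and Clones 2 and 3 formed an upper set of resistant libraries, and the GNF-2 population with Clones 1 and 4 a lower one, with the nilotinib population between. VEGFA, the main growth factor of blood vessels, had 66.6, 62.3, 79.0 and 39.9 FPKM in Clones 1 to 4, 108, 107 and 118 in the imatinib, nilotinib and GNF-2 populations, and 228 in vehicle. The populations were close to each other and far below vehicle, and all clones lay below them.

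Among genes of lipid storage and stress, HILPDA and ANKRD37 stood far higher in the imatinib population than in the other resistant libraries. HILPDA, a lipid droplet protein that inhibits fat breakdown, had 107, 29.1 and 19.8 FPKM in the imatinib, nilotinib and GNF-2 populations, 15.3, 31.9, 14.6 and 17.1 in Clones 1 to 4, and 129.9 in vehicle. ANKRD37, an ankyrin protein used as a hypoxia reporter gene, had 61.8, 21.1 and 9.78 FPKM in the imatinib, nilotinib and GNF-2 populations, 12.7, 15.4, 15.3 and 9.46 in Clones 1 to 4, and 61.6 in vehicle. For ANKRD37 the imatinib population equaled vehicle and the other 6 resistant libraries lay at 9.46 to 21.1 FPKM. NDRG1, a stress protein induced by hypoxia and iron loss, had 632, 561 and 375 FPKM in the imatinib, nilotinib and GNF-2 populations, 199, 272, 409 and 219.8 in Clones 1 to 4, and 907 in vehicle. Vehicle was highest, and Clone 3 was the only clone above the GNF-2 population.

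BNIP3 and BNIP3L are receptors on mitochondria that direct their removal. BNIP3 had 151, 372, 284 and 130.0 FPKM in Clones 1 to 4, 724, 514 and 371 in the imatinib, nilotinib and GNF-2 populations, and 660.4 in vehicle, with the imatinib population above vehicle and Clones 1 and 4 lowest. BNIP3L had 100.1, 163, 139 and 105 FPKM in Clones 1 to 4, 242, 222 and 133 in the imatinib, nilotinib and GNF-2 populations, and 276 in vehicle, again with Clones 1 and 4 lowest and vehicle highest. DDIT4 (REDD1), an inhibitor of the mTORC1 kinase, had 231, 164 and 121 FPKM in the imatinib, nilotinib and GNF-2 populations, 231, 134, 253 and 183 in Clones 1 to 4, and 304 in vehicle. Its order differed from the others, since Clones 1 and 3 were among its highest resistant libraries.

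Several oxygen-dependent hydroxylases are themselves HIF targets. EGLN1 (PHD2), the main prolyl hydroxylase that marks HIF1A, had 82.0, 41.6 and 24.2 FPKM in the imatinib, nilotinib and GNF-2 populations, 30.3, 17.2, 40.2 and 31.4 in Clones 1 to 4, and 89.6 in vehicle. The imatinib population stood near vehicle, and the remaining resistant libraries stood at 41.6 FPKM or less. EGLN3, the most inducible relative in other cells, reached at most 0.377 FPKM, in vehicle, and was listed at 0 in the nilotinib and GNF-2 populations and in Clone 1. KDM3A, a histone demethylase, had 72.1, 48.8 and 22.8 FPKM in the imatinib, nilotinib and GNF-2 populations, 20.9, 31.5, 26.7 and 20.7 in Clones 1 to 4, and 72.7 in vehicle, with the imatinib population close to vehicle.

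P4HA1 and P4HA2 hydroxylate prolines of collagen. P4HA1 had 101, 194, 202 and 105 FPKM in Clones 1 to 4, 324, 311 and 217 in the imatinib, nilotinib and GNF-2 populations, and 337 in vehicle, and P4HA2 had 5.82, 8.87, 24.8 and 14.2 FPKM in Clones 1 to 4, 25.7, 34.2 and 25.6 in the imatinib, nilotinib and GNF-2 populations, and 47.7 in vehicle. For both, all clones lay below all populations and Clone 1 was lowest. HIF1A itself had 41.8, 37.8 and 33.9 FPKM in the imatinib, nilotinib and GNF-2 populations, 35.0, 44.7, 34.3 and 49.4 in Clones 1 to 4, and 45.8 in vehicle. Its values spanned 1.46-fold in all and vehicle lay inside the range of the resistant libraries, below Clone 4.

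Across all resistant libraries against vehicle, no member passed the threshold, though the set lay low as a whole. With limma on log2(FPKM + 1), 35 of 36 members were lower in the 7 resistant libraries (47.4% of all entries were), and none had a Benjamini-Hochberg adjusted p under 0.05, against 0.0253% of all entries called lower and 0.0338% higher. At an unadjusted p under 0.05, 9 members were lower (2.44% of all entries) and none was higher (3.6%). In 24 members the vehicle library lay above all 7 resistant libraries (13.9% of all entries), and in 1 member, LDHB, it lay below them (19.8%), though not after rescaling by median ratios. None was called without a trend in the variance either. The members' median difference was -0.85, against 0.03 over all entries, and -0.52 with clone or population as a covariate. The test rests on 1 vehicle library, which is assumed to vary like the resistant ones, and only 7 entries of 11843 passed it.

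The sizes of these differences were led by CA9 and ADM. CA9 differed by -3.94 ± 1.64 (log2 difference ± SE, limma, n = 7 against 1, adjusted p = 0.733) and ADM by -3.48 ± 1.43 (adjusted p = 0.733). HILPDA differed by -2.28 ± 0.88, ENO2 by -2.25 ± 1.25, ANKRD37 by -1.81 ± 0.80 and SLC2A1 by -1.71 ± 0.51, each with the same limma adjusted p of 0.733. SLC2A3 had the smallest adjusted p of the members in limma, 0.15, with a difference of -1.63 ± 0.25 and 122 ± 20.1 FPKM (SD, n = 7) in resistant libraries against 373 in vehicle. With no filter on low values SLC2A3 passed (limma, adjusted p = 0.0405), and over all alternatives its adjusted p ran from 0.0405 to 0.54. For HIF1A the difference was -0.22, with a 95% interval of -0.74 to 0.31. No difference, and a difference in either direction within that interval, are compatible with these values.

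In the main fits, only clones against resistant populations had members past the threshold, and these calls did not hold in every alternative fit. PDK3, GPI and ENO2, 3 of 36 members, were called lower in the clones (5.78% of all entries) and none higher (1.68%). PDK3 (chrX:24483343-24568583 in the deposited table, GRCh37) averaged 3.37 ± 1.50 FPKM in clones and 11.2 ± 2.62 in populations (SD, n = 4 and n = 3), a log2 difference of -1.52 ± 0.29 (SE, limma, adjusted p = 0.0269), lower in 4 of 4 clones. GPI (chr19:34855644-34893318) averaged 261 ± 31.7 FPKM in clones and 431 ± 64.1 in populations, a difference of -0.72 ± 0.16 (limma, adjusted p = 0.0372). ENO2 (chr12:7023613-7032859) averaged 61.1 ± 33.4 FPKM in clones and 268 ± 103 in populations, a difference of -2.22 ± 0.51 (limma, adjusted p = 0.0425).

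These 3 of 36 members stand beside 5.78% of all entries called lower in the clones and 1.68% called higher, so the count of calls is near the background of a comparison in which 883 entries passed. At an unadjusted p under 0.05, 16 of 36 were lower in clones, against 18.5% of all entries, and none was higher (8.55%). In all 29 of 36 were lower by any amount (57.7%). Clones and populations did not overlap in 11 members that were lower in clones (18.1% of all entries), and in 1, LDHB, that was higher (8.17%), though not after quantile normalization. The members' median difference was -0.61, against -0.08 over all entries. CA9 (-2.82 ± 0.72, limma adjusted p = 0.056), PFKFB4 (-1.77 ± 0.49, 0.0685), BNIP3 (-1.27 ± 0.40, 0.0952) and P4HA2 (-1.20 ± 0.42, 0.117) had large differences that missed the threshold. SLC2A3 differed by 0.22, with a 95% interval of -0.17 to 0.61, and SLC16A3 by 0.18, with an interval of -0.29 to 0.64.

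The calls depend on single libraries and on the fit. No member was called without the imatinib, nilotinib or GNF-2 population or without Clone 1. Without Clone 4, 1 (VEGFA) was called, and 7 were called without Clone 2 or without Clone 3. Of all entries, 196, 125 and 268 were called without the imatinib, nilotinib and GNF-2 populations. Without Clones 1 to 4 in turn, 271, 1100, 729 and 562 were called. The member counts thus moved with those of all entries and cannot be read as particular to these members. With resistance class as a covariate none was called and the members' median difference was -0.34, and without the imatinib population it was -0.37. With the population of origin as a block, a fit added after the data were seen, none was called either, and 27 of 36 members were lower with a median of -0.39. PDK3 then differed by -1.29 (limma, adjusted p = 0.203), GPI by -0.58 (0.228) and ENO2 by -1.75 (0.202). That fit has 3 residual degrees of freedom, and 13 of all 11843 entries passed it.

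**Figure D4:**
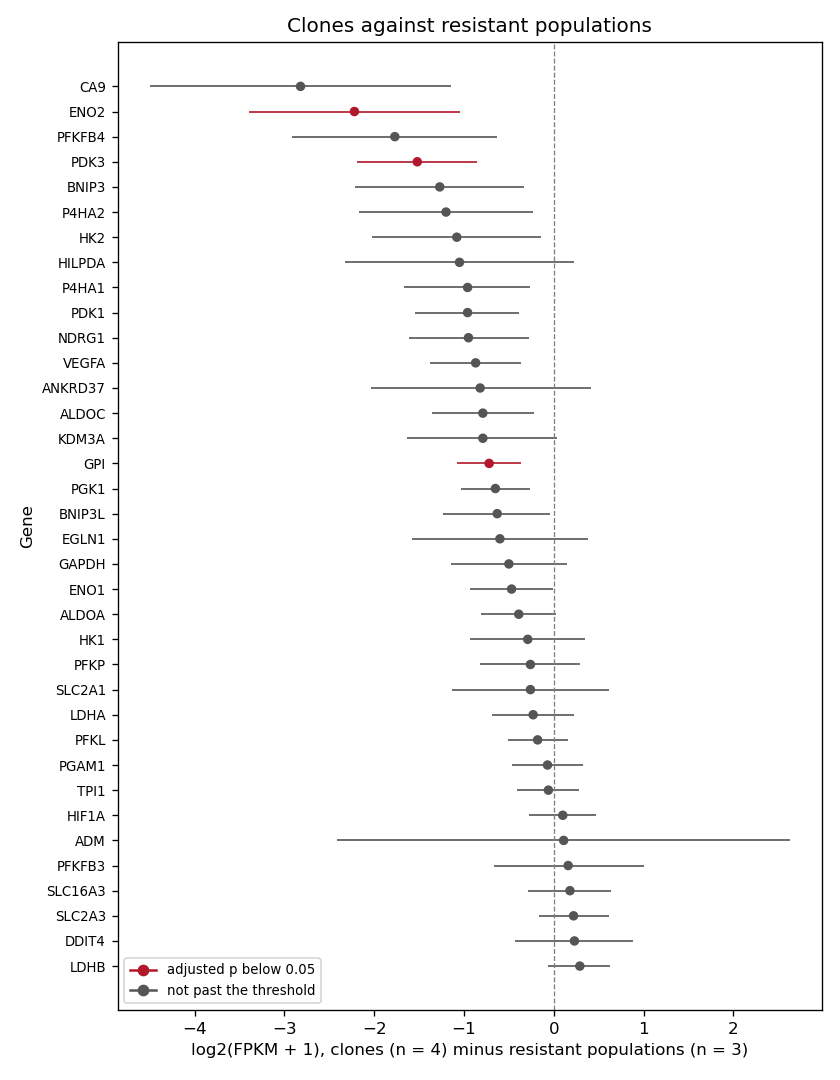
Points are log2(FPKM + 1) differences of the 4 clones minus the 3 resistant populations for each member, with 95% intervals from limma; red marks an adjusted p under 0.05. PDK3, GPI and ENO2 are red, CA9 lies farthest to the left at -2.82, and the carriers SLC2A1 and SLC2A3, ADM and HIF1A straddle 0.

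Set against the sequenced population of the same origin, which the labels do not say is the very culture it came from, each clone had its own list, with 1 library on each side and no test. Clone 1 was at least 2-fold below the GNF-2 population in 8 members (PFKFB4, ENO2, PDK1, PDK3, CA9, BNIP3, P4HA1 and P4HA2; 6.73% of all entries) and 2-fold above in none (1.65%). Clone 4 was 2-fold below it in 9 members (PFKFB4, PGK1, ENO2, PDK1, PDK3, CA9, VEGFA, BNIP3 and P4HA1; 6.46%) and above in none (2.98%). Clone 2 was 2-fold below it only in CA9 and P4HA2 (6.48%) and 2-fold above in PFKFB3 and ADM (3.27%). Clone 3 was 2-fold below the imatinib population in 11 members (HK2, PFKFB4, ENO2, PDK1, PDK3, CA9, BNIP3, ANKRD37, HILPDA, EGLN1 and KDM3A; 5.7%) and above in none (3.12%). The median member differed from that population by -0.38 in Clone 1, -0.07 in Clone 2, -0.51 in Clone 3 and -0.20 in Clone 4, against -0.13, -0.07, -0.08 and -0.08 over all entries. Clones had also been sorted and expanded, so clonal descent and handling cannot be told apart.

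By class of resistance, the set lay lower in GNF-2-resistant than in catalytic-resistant libraries, and no member passed. The GNF-2 population was kept for 21 days and the imatinib and nilotinib populations for 27. In the populations, class and time therefore cannot be told apart. Clones 1 and 2 came from GNF-2-resistant cells and Clone 3 from imatinib-resistant cells, and the class fits took no account of shared origin. In the GNF-2-resistant libraries the members' median difference from vehicle was -1.07 (0.04 over all entries). There 35 of 36 members lay below vehicle in all 3 libraries (26.2% of all entries) and 20 were lower at an unadjusted p under 0.05 (4.47%), with none called lower (0.0422%) or higher (0.0507%). By any amount 35 were lower (47% of all entries). LDHB alone was above vehicle in all 3 libraries (33.8%), and no member was higher at an unadjusted p under 0.05 (6.64%). In the catalytic-resistant libraries the median difference was -0.49 (0.02 over all entries), 35 members were lower by any amount (46.8%), 26 lay below vehicle in all 3 (21.2%) and LDHB above it (28.8%), though not after rescaling by median ratios. At an unadjusted p under 0.05, 5 were lower (1.3%) and none was higher (1.39%), with none called lower (0.00844%) or higher (0.0253%). Without Clone 3 that median was -0.31. Both comparisons share the vehicle library. SLC2A3 had the smallest adjusted p in each, with a limma difference of -1.76 ± 0.24 in GNF-2-resistant (adjusted p = 0.141) and -1.61 ± 0.24 in catalytic-resistant libraries (adjusted p = 0.382).

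Among the GNF-2-resistant libraries the largest differences from vehicle were CA9 (-4.49 ± 1.70), ADM (-4.11 ± 1.38), ENO2 (-2.89 ± 1.07), HILPDA (-2.55 ± 0.97), ANKRD37 (-2.22 ± 0.70) and SLC2A1 (-2.13 ± 0.37), with limma adjusted p of 0.339 to 0.441. Among the catalytic-resistant libraries they were CA9 (-2.91 ± 1.70), ADM (-2.43 ± 1.38), HILPDA (-1.83 ± 0.97), SLC2A3, PFKFB3 (-1.41 ± 0.54) and VEGFA (-1.22 ± 0.39), with limma adjusted p of 1 except for SLC2A3. Without Clone 3 the difference of HILPDA was -1.20.

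Tested directly, catalytic-resistant minus GNF-2-resistant libraries gave a median of 0.49 over the members and -0.01 over all entries, with 35 of 36 members higher in the catalytic-resistant group and 1 lower (51.8% of all entries). None was called higher (0.0169% of all entries) or lower (0.0169%), while 5 were higher at an unadjusted p under 0.05 (2.32%). In 10 members the catalytic-resistant libraries lay wholly above the GNF-2-resistant ones (4.08% of all entries): SLC2A1, PFKL, ALDOA, TPI1, GAPDH, PGAM1, ENO1, LDHA, NDRG1 and EGLN1. In no member did they lie wholly below (6.82%). SLC2A1 averaged 106 ± 34.9 FPKM in catalytic-resistant and 54.3 ± 9.87 in GNF-2-resistant libraries (SD, n = 3 each), a difference of 0.91 ± 0.26 (limma, adjusted p = 0.846). LDHA averaged 1337 ± 179 and 952 ± 9.09 FPKM in the same groups, a difference of 0.48 ± 0.16 (limma, adjusted p = 0.846). The 6 largest differences, also with limma adjusted p of 0.846 or 0.852, were ENO2 (1.70 ± 0.76), ADM (1.69 ± 0.97), CA9 (1.58 ± 1.20), P4HA2 (1.25 ± 0.49), EGLN1 (1.11 ± 0.33) and HK2 (1.08 ± 0.49). The catalytic-resistant group holds 2 populations and 1 clone and the GNF-2-resistant group 1 population and 2 clones, and with the kind of library as a covariate the median difference was 0.43. Without Clone 3 it was 0.71. The largest differences rest on single libraries. CA9 differed by 0.55 without Clone 1 and by 2.99 without the GNF-2 population, whose 28.6 FPKM was above every catalytic-resistant library. ADM differed by 2.67 without Clone 2, ENO2 by 0.99 without Clone 1, and HK2 by 0.63 without the imatinib population and 1.65 without Clone 3.

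Imatinib and nilotinib share the catalytic site of ABL, and their populations were kept for the same 27 days at different doses (2.5 and 0.3 µM), so their values are set side by side with no comparison, for 6 members picked after their values were seen. In the imatinib and nilotinib populations ADM had 34.5 and 6.21 FPKM, HILPDA 107 and 29.1, ANKRD37 61.8 and 21.1, and CA9 23.4 and 8.32. PFKFB4 had 91.2 and 110.6 FPKM in these populations, and PDK3 10.2 and 14.1.

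Other HIF targets lay low as the members did, whereas the medians of 4 lists of HIF regulators and further carbon metabolism lay between -0.16 and 0.35 in resistant libraries against vehicle and in clones against populations. These lists, like the members, were chosen with earlier results of these data known, so they are no independent check. Of 37 further HIF target genes 30 were tested. In resistant libraries against vehicle 28 of the 30 were lower (47.4% of all entries), 21 of them without overlap (13.9%), with a median of -1.0. None was called lower (0.0253%) or higher (0.0338%). The largest differences were CXCR4, the chemokine receptor, at -3.83 ± 1.43, PPFIA4 at -2.25 ± 1.49, the repressor BHLHE40 at -2.17 ± 0.63 and the sterol regulator INSIG2 at -1.77 ± 0.62 (limma, adjusted p = 0.733 each). CXCR4 had 15.6, 1.94 and 1.72 FPKM in the imatinib, nilotinib and GNF-2 populations, 0.950, 1.35, 18.0 and 0.0340 in Clones 1 to 4, and 53.4 in vehicle, so that the imatinib population and Clone 3 stood above the other 5 resistant libraries.

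In clones against populations, 24 of these 30 genes were lower (57.7% of all entries) with a median of -0.74, 7 were called lower (5.78%) and 1 higher (1.68%). The 7 were PPFIA4 (-3.02, limma adjusted p = 0.00322), WSB1 (-2.22, 0.00582), FAM162A (-1.28, 0.0336), ERO1L (-1.17, 0.0278), ANG (-1.11, 0.0349), GYS1 (-1.10, 0.0208) and KDM4C (-0.63, 0.0372). WSB1, a ubiquitin ligase adaptor, had 27.7, 52.9, 26.9 and 25.6 FPKM in Clones 1 to 4, 133, 148 and 176 in the imatinib, nilotinib and GNF-2 populations, and 167 in vehicle, and PPFIA4, a liprin, had 0.972, 2.94, 2.91 and 1.49 FPKM in Clones 1 to 4, 25.7, 26.5 and 17.5 in the imatinib, nilotinib and GNF-2 populations, and 33.4 in vehicle. In both, all clones lay below every population. The gene that rose was TFRC, the transferrin receptor, at 2.03 (limma, adjusted p = 0.0255), with 107, 98.1, 68.2 and 137 FPKM in Clones 1 to 4, 24.9, 12.7 and 40.7 in the imatinib, nilotinib and GNF-2 populations, and 34.3 in vehicle. With the population of origin as a block none of the 8 passed (limma, adjusted p = 0.0565 for PPFIA4, 0.0688 for WSB1 and 0.0597 for TFRC). PPFIA4 and WSB1 passed under every other alternative run, while the remaining 6 missed the threshold under several, among them without the imatinib population and without the nilotinib population.

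Among 13 tested regulators of HIF the median was 0.01 against vehicle and none was called. HIF3A, an inhibitory relative of HIF1A, fell in the clones (-1.98 ± 0.19, limma adjusted p = 0.00322; 0.0602 with origin as a block). It was listed at 0 in Clone 3, had 0.0309, 0.0874 and 0.0832 FPKM in Clones 1, 2 and 4, 3.69, 3.13 and 2.65 in the imatinib, nilotinib and GNF-2 populations, and 4.81 in vehicle. ARNT, the partner of HIF1A, had 20.1, 26.2, 25.7 and 16.9 FPKM in Clones 1 to 4, 44.4, 37.6 and 29.6 in the imatinib, nilotinib and GNF-2 populations, and 42.8 in vehicle, and VHL, which targets HIF1A for destruction, had 26.6, 30.6 and 35.6 FPKM in the imatinib, nilotinib and GNF-2 populations, 27.1, 20.9, 22.4 and 24.0 in Clones 1 to 4, and 24.5 in vehicle.

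Of 21 further glycolysis genes 11 were tested, with medians of -0.10 in resistant libraries against vehicle and 0.10 in clones against populations, and none called in either. PKM (listed as PKM2), the pyruvate kinase that ends glycolysis, had 1271, 1335, 913 and 1293 FPKM in Clones 1 to 4, 885, 938 and 712 in the imatinib, nilotinib and GNF-2 populations, and 1021 in vehicle, with Clones 1, 2 and 4 above vehicle. The 7 pentose phosphate genes had medians of 0.21 and 0.35 in these comparisons, and TALDO1, transaldolase, rose in the clones (0.94 ± 0.14, limma adjusted p = 0.0113), though not without the nilotinib population (adjusted p = 0.0675), with class as a covariate (0.0553) or with origin as a block (0.142). The 25 genes of pyruvate entry and the citrate cycle had medians of 0.05 and -0.04; in the clones IDH3A rose (0.66, limma adjusted p = 0.0417) and DLST fell (-0.48, limma adjusted p = 0.0286), and neither passed without the imatinib or without the nilotinib population, or with origin as a block (0.235 and 0.216).

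**Figure D5:**
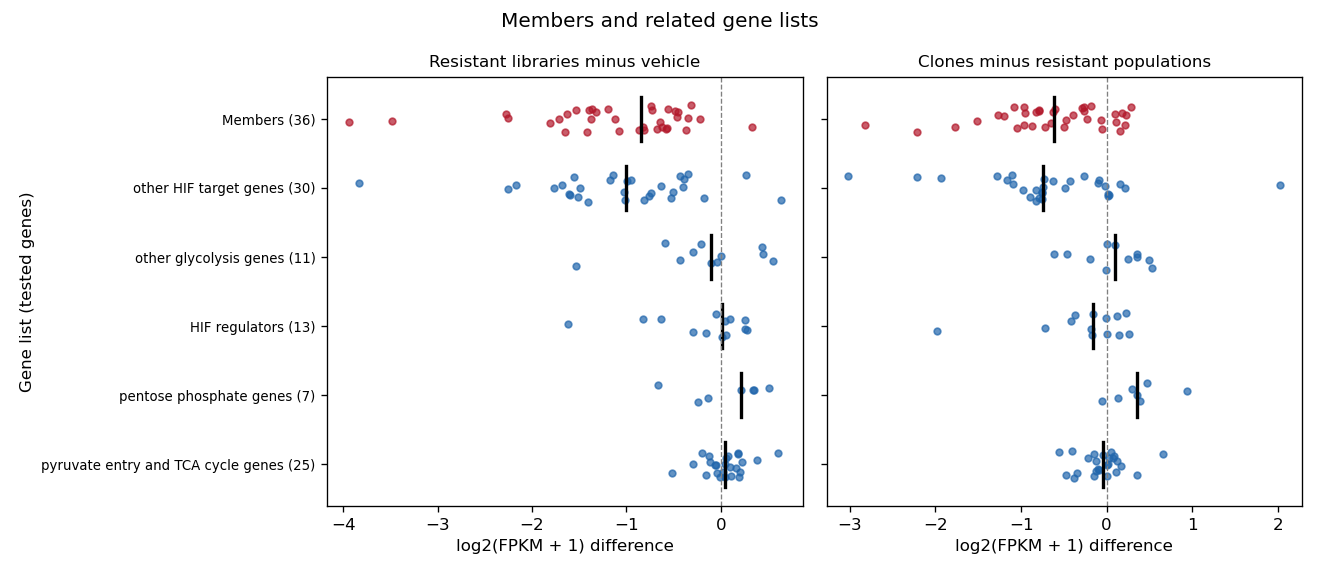
Each point is a tested gene, placed by its log2(FPKM + 1) difference of resistant libraries minus vehicle (left) or clones minus resistant populations (right); black bars are medians, and the number of tested genes stands beside each list. The medians of the members and of the other HIF targets lie to the left of 0 in both, at -0.85 and -1.0 on the left. Those of the other 4 lists lie between -0.16 and 0.35.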

How the data were processed

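Total RNA of 8 KCL-22 libraries was sequenced on Illumina libraries, per the labels' protocols. The authors deposited 1 table of FPKM values, 1 per gene and library, made with TopHat 1.3 and Cufflinks 1.3 on GRCh37, as listed in the submitters' processing notes. The header gives no unit; FPKM follows from Cufflinks and from the values. Read counts were not used here, and depth was estimated from the smallest FPKM steps of 612 intronless genes.

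The 38 members and all gene lists were chosen with earlier results of these data known. Entries with a mean of at least 1 FPKM (11843 of 31402; 70 with a missing value were left out) were tested on log2(FPKM + 1) with limma 3.58.1 in R 4.3.3 (lmFit, eBayes with a trend), two-sided, with Benjamini-Hochberg adjustment over all of them and a threshold of 0.05. Of the tested entries, 401 were listed at 0 in at least 1 library. All 8 libraries entered each fit: all resistant libraries against vehicle with 6 residual degrees of freedom, clones against populations with 5 (vehicle, populations and clones as means), and the class comparisons in 1 shared fit of 4 groups with 4. Each library was also set against vehicle, and each clone against the sequenced population of the same origin, by counts of members 2-fold apart with at least 5 FPKM in the higher library.

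Values in all libraries are given for each tested member. Fold change, SE and adjusted p are given for members past the threshold and for the 6 largest differences of a comparison, and SLC2A3, SLC2A1, LDHA, HIF1A and SLC16A3 were added after their values were seen. From the lists, genes past the threshold and up to 4 by size were named, and single genes (SLC2A14, PKM, PDK2, ARNT, VHL) were added after their values were seen. Promoters came from RefSeq (GRCh38.p14), positions of genes from the deposited table. Alternatives were pseudocounts of 0.1 and 5, no filter, a mean of at least 5 FPKM, rescaling by median ratios, quantile normalization, no variance trend, only genes above 0 in all 8 libraries, kind or class as a covariate, leaving out each library and, added after the data were seen, the population of origin as a block for clones against populations (the labels name the origin of each clone). Tables and figures used pandas 2.3.3, numpy 2.4.6 and matplotlib 3.10.9 under Python 3.11.15.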

Additional observations from a re-analysis of the deposited data

Results flagged for a closer look

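The highest sample of a group stood apart from the rest in 4 of the 72 member groups checked, measured as the gap to its nearest neighbour divided by the group's whole range. Chance gives about 1 such group in 20, so a count of 4 in 72 is near that rate. The groups of 7 resistant libraries mix drugs, populations and clones, and include the 4 clones that were also checked alone. HILPDA, ANKRD37 and EGLN1 stood apart in the imatinib population among the 7 resistant libraries, with gaps of 0.812, 0.778 and 0.623 of the range, each past Dixon's 95% limit for 7 samples. HILPDA had 107 FPKM there and at most 31.9 in the other 6 resistant libraries, ANKRD37 61.8 and at most 21.1, and EGLN1 82.0 and at most 41.6. Vehicle had 129.9, 61.6 and 89.6 FPKM of these genes. HILPDA also stood apart in Clone 2 among the 4 clones, at 31.9 FPKM against 14.6 to 17.1 in Clones 1, 3 and 4, a gap of 0.856 of the range, past the limit for 4 samples.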

How the results depend on the processing

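Of 877 values of single genes recomputed, 780 kept their direction and their side of the threshold, 90 lost the call, 6 gained it and 1 changed direction: SLC16A3 in clones against populations was 0.18, and -0.03 to 0.32 with 1 library left out (lowest without the GNF-2 population). Members called in clones against populations numbered 3, and 5 with a pseudocount of 5 or with quantile normalization, 1 with no filter 0 with class as a covariate, 0 with the population of origin as a block, and 0 to 7 when single libraries were left out. All resistant libraries against vehicle had 1 member called with no filter (SLC2A3). With 1 library left out, the members' median was -0.98 to -0.76 for all resistant libraries against vehicle, -0.74 to -0.37 for clones against populations, -1.21 to -0.84 for GNF-2-resistant and -0.67 to -0.31 for catalytic-resistant libraries against vehicle, and 0.38 to 0.71 for catalytic-resistant against GNF-2-resistant libraries. Entries called among all genes varied more: 883 in clones against populations, 238 with class as a covariate, 13 with origin as a block and 125 to 1100 with 1 library left out. They numbered 981 with a pseudocount of 5, 927 with quantile normalization and 905 with no filter. Against vehicle 7 entries were called in all resistant libraries, 101 with no filter, 0 with only genes above 0 in all 8 libraries and 4 to 17 with 1 library left out; for GNF-2-resistant libraries these counts were 11, 79, 0 and 1 to 12, and for catalytic-resistant libraries 4, 59, 0 and 0 to 1. LDHB, above vehicle in all 7 resistant libraries as deposited, stood at 603.2 in the nilotinib population and 604.5 in vehicle after rescaling by median ratios. CA9, listed at 0 in Clone 1, gave no value with only genes above 0. The cause was not tested. No paired analysis was possible because the labels give no replicate numbers that groups share, other than the block by population of origin, chosen after the data were seen, which assumes that a clone's culture of origin resembled the sequenced library. The vehicle arm has 1 library and could not be left out.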
